A study of Mus musculus with 3 samples.

Results

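The genes described here encode the proteins of the mitochondrial ribosome. They were taken by name, as protein-coding genes whose symbol starts with Mrpl or Mrps followed by a number, and 77 of the 41799 genes in the deposited liver tables met this rule. By textbook assignment 50 of them belong to the large subunit, among them Mrps30 and Mrps18a in spite of their names, and 26 to the small subunit. The remaining gene, Mrps36, was named as a ribosomal gene, but its product is now known as a component of the alpha-ketoglutarate dehydrogenase complex. RNA sequencing had been run on liver of male C57BL/6 mice at 14 weeks of age in 3 groups with 1 library each. The first group ate regular chow, the second a high-fat diet (HFD), and the third the HFD together with DfCS-Ib, given by oral gavage at 40 mg/kg in 0.3 ml of water. The series names DfCS-Ib by this code and calls the treatment a sulfated oligosaccharide. Groups held 8 mice with free access to food. The number of mice behind a library, the length of the feeding and the make-up of the diet were not given in the sources used here. With 1 library per group no difference below has a replicate check. Each one describes these 3 libraries, and no p-value was computed.

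The mitochondrial ribosome makes the few proteins that mitochondrial DNA encodes, which are core subunits of the respiratory chain and of ATP synthase. Its RNAs come from mitochondrial DNA, while each of its proteins is encoded in the nucleus, made in the cytosol and imported, so that a working particle needs products of both genomes. The small subunit decodes the mRNA and the large subunit joins the amino acids. Some of the proteins have relatives in all ribosomes, some in bacterial ribosomes, and others are found in mitochondria alone. In liver, a tissue rich in mitochondria, this particle supplies the machinery of oxidative metabolism.

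The chow, HFD and DfCS-Ib libraries held 11028671, 12279537 and 10969699 counts. The 77 genes together took 18710, 25436 and 18318 of these, or 0.170% (0.167 to 0.172), 0.207% (0.205 to 0.210) and 0.167% (0.165 to 0.169) of each library. Intervals are 95% exact (Clopper-Pearson) intervals and cover counting error only. Levels are given as CPM, that is, counts brought to a common library size with TMM factors. A filter at a mean of 1 CPM kept 71 of the 77 genes, beside 13153 genes of all kinds, and these were compared. The 71 had a median of 212, 309 and 226 counts, so that a single gene's ratio carried a counting error that was wide beside the small differences described here.

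Of the other 6 genes, Mrpl22, Mrpl40, Mrps18b and Mrps23 were listed at 0 in each library, where a count of 0 allows up to 0.279, 0.233 and 0.280 CPM in the same order. These genes encode ribosomal proteins that every mitochondrion is thought to need, so a listing at 0 may be a failed estimate and is not read as absence. Mrpl23 had 8, 15 and 10 counts, while its processed copy Mrpl23-ps1, which the type rule leaves out, had 65, 124 and 77. Mrps36 had 3, 8 and 12 counts. The way reads with several placements were counted is not given in the sources used here, so the values of genes with copies are uncertain. Mrps18b, Mrps23 and Mrps35 are listed on scaffolds off the main chromosomes. Another gene model overlaps 23 of the 71, for 6 of them on the same strand. Whether the counting used strand is not given either, so their reads cannot be told apart from those of the neighbour.

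Levels per length, as the authors' RPKM, spanned a wide range. The median over the 71 genes was 15.8 RPKM in the chow library, 19.2 in the HFD library and 15.9 in the DfCS-Ib library. Mrpl12, whose product forms the flexible stalk that contacts translation factors, was the highest at 86.8, 91.0 and 72.1 RPKM. Next came Mrpl52 at 50.4 and 70.8 RPKM in the chow and HFD libraries, with a DfCS-Ib/chow ratio of 0.990, Mrpl34 at 47.7, 49.9 and 37.5, Mrpl53 at 46.8, 46.4 and 41.8, and Mrpl33 at 37.6, 47.4 and 40.3 RPKM. All 5 of these genes encode large-subunit proteins and have short stated lengths of 412 to 949 bases. At the other end, Mrps33 measured 0.602, 1.62 and 0.950 RPKM from 7, 21 and 11 counts, and Mrps35 measured 0.773, 0.826 and 0.777 RPKM from 21, 25 and 21 counts. Mrpl19, Mrps25 and Mrps5 followed, between 2.51 and 5.54 RPKM over the libraries. Levels thus differed many times over between genes. Within a gene, the highest library was a median of 1.25-fold the lowest in CPM, and under 2-fold for 70 of the 71, with Mrps33 as the exception.

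**Figure D1:**
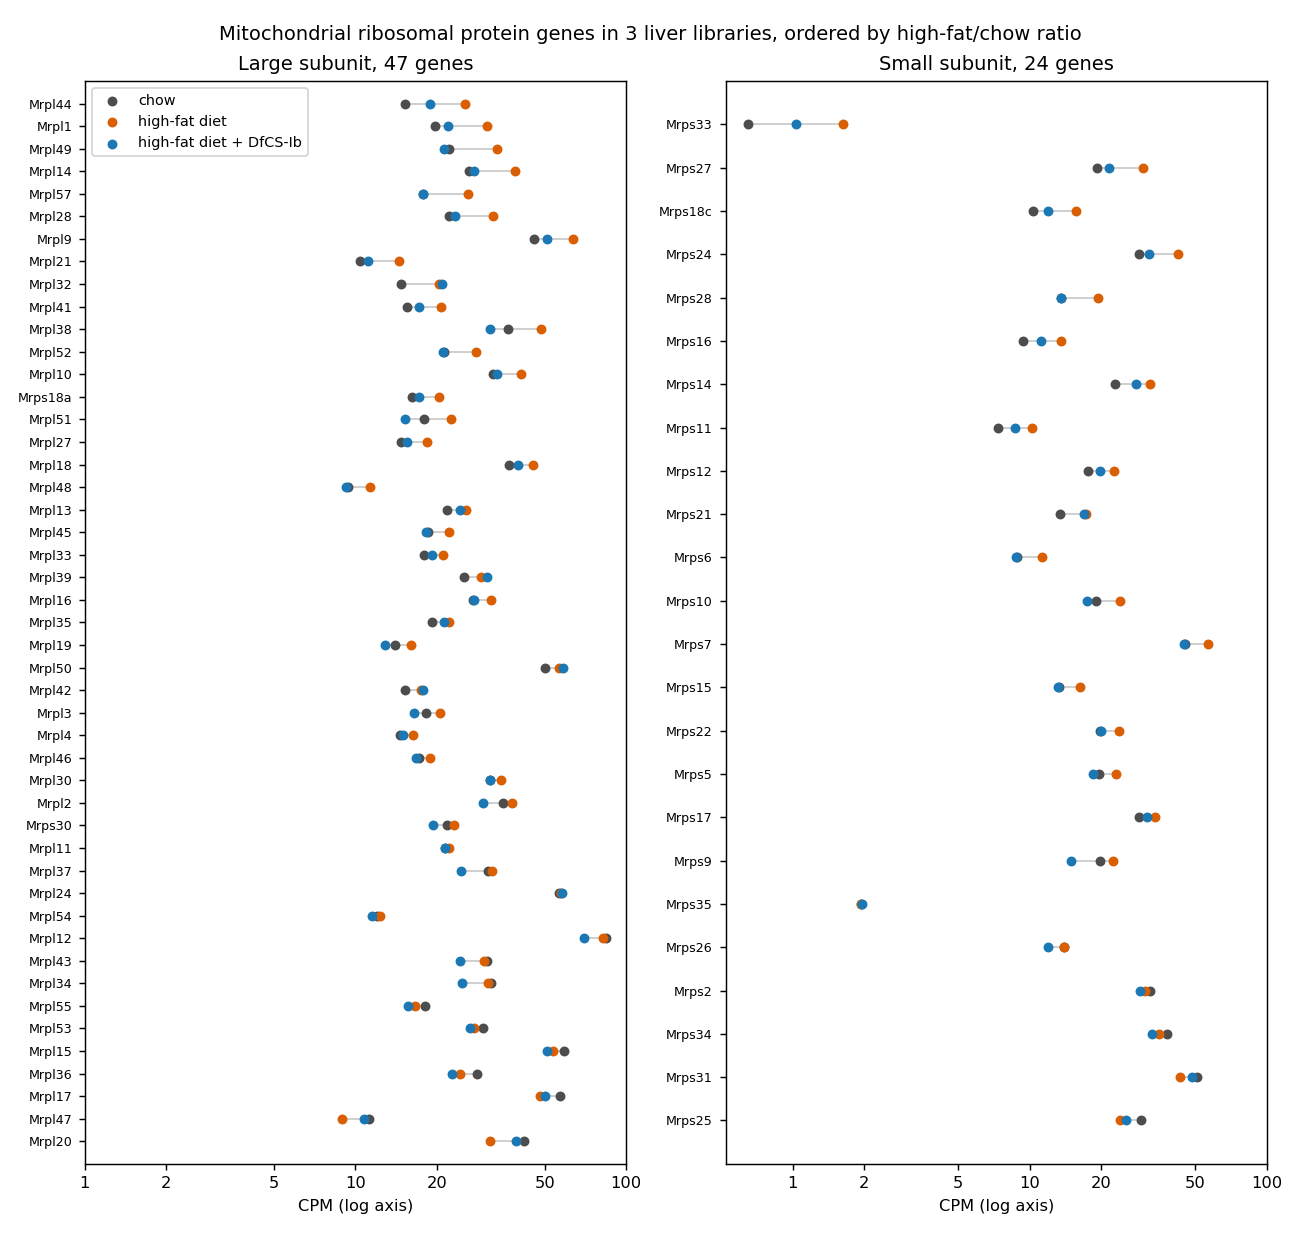
Level of each of the 71 analysed genes in the 3 libraries, in CPM on a log axis, with 1 point per library and 1 row per gene; large-subunit genes are on the left and small-subunit genes on the right, ordered by the HFD/chow ratio. The HFD point lies to the right of both others for 50 of the 71 genes, and the gaps between points of 1 gene are small beside the differences between genes.

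The HFD library was compared with the chow library to see what went with the diet. Mitochondrial ribosomal genes were mostly slightly higher in the HFD library, by less than 2-fold for 70 of the 71. The exception, Mrps33, had few counts and is given below. The ratio was above 1 for 55 of 71 genes, against 51.9% of all genes analysed. The median log2 ratio of CPM plus 1 was 0.22, against 0.02 over all genes, and the spread between the 71 genes was small (SD 0.25, against 0.55 over all genes). A small spread was not particular to them, with an SD of 0.20 for respiratory chain subunits and 0.22 for cytosolic ribosomal proteins. Summed over the 77 genes, scaled counts were 1.14-fold higher (1.12 to 1.16) in the HFD library. At least 1.3-fold higher on the CPM plus 1 scale were 19 genes (background 19.5%), and at least 1.3-fold lower was 1, Mrpl20 (background 16.1%). At 2-fold on that scale the numbers were 0 higher (background 3.47%) and 0 lower (background 2.27%). Most genes thus lay slightly to the same side, while the share past 1.3-fold, 26.8%, was not far above that of all genes.

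The choice of scaling moved these counts. With library totals in place of TMM factors, 30 genes were at least 1.3-fold higher and 0 lower, and 61 of 71 lay above 1. Over all genes the same scaling gave 25.3% higher, 11.6% lower and 60.8% above 1. It moved the median of all genes to 0.11, and the share of higher genes among all genes past 1.3-fold from 54.8% to 68.5%. Relative to the all-gene median the members' median was 0.20 with TMM and 0.21 with library totals.

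Among genes with at least 100 counts over the libraries, Mrpl44 stood highest in this comparison. It encodes a large-subunit protein with a fold like that of RNase III, and lies on chromosome 1, 79776018 to 79781445 of mm10. It measured 15.3 CPM in the chow library, 25.5 in the HFD library and 18.8 in the DfCS-Ib library, from 165, 328 and 202 counts. The HFD value was 1.66-fold that of chow (1.37 to 2.02), and the DfCS-Ib value lay between the others. Mrps27, on chromosome 13, 99344767 to 99415562, encodes a small-subunit protein with pentatricopeptide repeats, a motif of RNA-binding proteins of organelles. It measured 19.3, 30.1 and 21.6 CPM in the same order, a 1.56-fold difference (1.31 to 1.85) between HFD and chow. Mrpl1, whose product forms the stalk next to the exit site for spent tRNA, measured 19.7, 30.5 and 21.9 CPM, or 1.55-fold (1.31 to 1.84). Both genes had nearly the same level in the chow and DfCS-Ib libraries and were high in the HFD library.

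Mrpl49, a large-subunit gene with no bacterial relative, measured 22.1, 33.3 and 21.2 CPM (HFD/chow 1.51-fold, 1.28 to 1.77). Mrps18c, which encodes the relative of bacterial protein S18, measured 10.3, 15.6 and 11.9 CPM (1.51-fold, 1.2 to 1.93). Its chow and HFD levels rested on 111 and 201 counts. Mrps33 had a larger ratio of 2.51-fold, but from 7 and 21 counts, with an interval of 1.03 to 6.99.

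A few genes lay the other way. Mrpl20, on chromosome 4, 155802883 to 155808831, encodes the relative of bacterial L20, which binds ribosomal RNA early in assembly. It measured 41.8 CPM in the chow library, 31.4 in the HFD library and 39.3 in the DfCS-Ib library, from 450, 404 and 422 counts. Its HFD level was 1.33-fold lower than that of chow (1.16 to 1.53), and the chow and DfCS-Ib levels differed by less than the counting error. Mrpl47, Mrps25, Mrpl17 and Mrps31 followed with log2 ratios of -0.29, -0.28, -0.25 and -0.22. The counting interval lay below 1 for Mrpl17, Mrpl20, Mrps25 and Mrps31 (4 of 71, background 22.2%) and above 1 for 33 of 71 (background 23.3%). Under library totals Mrpl20 stayed lower but no longer reached 1.3-fold.

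**Figure D2:**
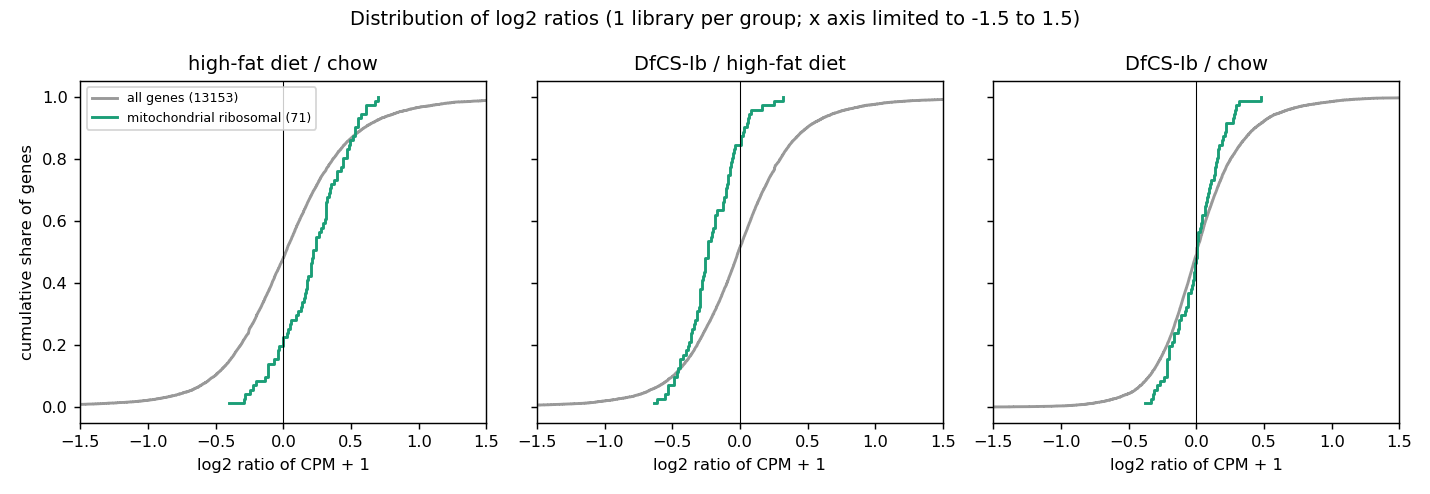
Cumulative share of genes against the log2 ratio of CPM plus 1 in the 3 comparisons, for the 71 mitochondrial ribosomal genes (green) and all 13153 genes analysed (grey), with the axis limited to -1.5 to 1.5. The green curve is the steeper one; it lies to the right of the grey one for HFD against chow (median 0.22), to the left for DfCS-Ib against HFD (median -0.24), and crosses it at 0 for DfCS-Ib against chow.

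The DfCS-Ib and HFD libraries were compared next, to see what went with the compound on the same diet. Mitochondrial ribosomal genes were mostly slightly lower in the DfCS-Ib library. The ratio was below 1 for 60 of 71 genes (background 51.5%), with a median log2 ratio of -0.24 against -0.01 over all genes. The SD between the 71 genes was 0.20, against 0.49 over all genes, 0.18 for respiratory chain subunits and 0.22 for cytosolic ribosomal proteins. Summed scaled counts were 1.16-fold lower (1.14 to 1.18). At least 1.3-fold lower were 14 genes (background 15.7%) and at least 1.3-fold higher were 0 (background 15.0%). At 2-fold there were 0 lower (background 2.02%) and 0 higher (background 2.46%). With library totals 27 genes were at least 1.3-fold lower, 68 of 71 lay below 1, against 22.0% and 61.4% of all genes, the all-gene median was -0.10, and the share of higher genes among all genes past 1.3-fold went from 48.8% to 33.6%. This comparison and the first share the HFD library, so a high or low reading of a gene in that library enters both.

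Mrpl49 had the lowest ratio. Its 429 counts in the HFD library stood against 227 in the DfCS-Ib library, and the level was 1.58-fold lower (1.34 to 1.86). Mrpl38, which encodes a mitochondria-specific protein of the central protuberance of the large subunit, measured 36.7, 48.6 and 31.4 CPM in the chow, HFD and DfCS-Ib libraries, and was 1.55-fold lower with DfCS-Ib than with HFD alone (1.35 to 1.77). Mrps9, a small-subunit gene with relatives in all ribosomes, measured 19.7, 22.4 and 14.9 CPM and was 1.5-fold lower (1.23 to 1.83). Its DfCS-Ib level was also below chow, as were those of Mrpl38 (DfCS-Ib/chow 0.856, 0.738 to 0.992) and, within counting error, Mrpl49.

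Mrpl51 was lower by 1.47-fold (1.21 to 1.80) and Mrpl57 by 1.47-fold (1.22 to 1.76), and both belong to the large subunit of mitochondria alone. Mrpl57 measured 17.7, 26.1 and 17.8 CPM, so its chow and DfCS-Ib levels were almost the same. On the other side 11 genes lay above 1. Highest among those with at least 100 counts were Mrpl20 (1.25-fold higher, 1.09 to 1.44), Mrpl47, Mrps31, Mrps25 and Mrpl17, with log2 ratios of 0.32, 0.25, 0.16, 0.09 and 0.07, and these 5 were also the lowest in HFD against chow. Of the other 6, Mrps35 lay below chow in the HFD library, while Mrpl24, Mrpl32, Mrpl39, Mrpl42 and Mrpl50 lay above it. Mrpl20 was the 1 gene of 71 with a counting interval above 1 (background 20.5%), and 29 of 71 had an interval below 1 (background 21.1%).

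Between the DfCS-Ib and chow libraries the genes showed hardly any common difference. The ratio was above 1 for 37 of 71 genes (background 50.9%) and below 1 for 34 (background 49.1%), the median log2 ratio was 0.00, as over all genes, and the summed scaled counts had a ratio of 0.982 (0.962 to 1.0). Mrpl32 was the 1 gene at least 1.3-fold higher (background 12.5%), and Mrps9 the 1 at least 1.3-fold lower (background 8.50%). At 2-fold there were 0 higher (background 1.62%) and 0 lower (background 0.433%). Mrpl32, on chromosome 13, 14610301 to 14613037, encodes a large-subunit protein whose trimming by the inner-membrane m-AAA protease is needed for ribosome assembly. It measured 14.7 CPM in the chow library, 20.3 in the HFD library and 20.8 in the DfCS-Ib library, from 158, 261 and 223 counts. Its level was thus alike in both HFD-fed libraries, and 1.42-fold higher with DfCS-Ib than with chow (1.15 to 1.75). Mrps9 was 1.32-fold lower than in chow (1.07 to 1.63), a difference that fell short of 1.3-fold on the CPM plus 1 scale with library totals.

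Mrps21, Mrps14, Mrpl44 and Mrpl39 followed Mrpl32 on the higher side, with log2 ratios of 0.31, 0.28, 0.28 and 0.27. On the lower side after Mrps9 came Mrpl34, Mrpl43, Mrpl37 and Mrpl36, at -0.34, -0.32, -0.31 and -0.29. The counting interval excluded 1 on the higher side for 5 of 71 genes (background 16.0%) and on the lower side for 11 (background 14.1%). Among the 11 was Mrpl12, the most abundant member, with 908, 1060 and 751 counts. Its level was almost equal in chow and HFD (84.4 and 82.4 CPM) and 70.0 CPM in the DfCS-Ib library, 1.21-fold below chow (1.09 to 1.33).

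Read over the 3 libraries at once, the commonest order was a peak in the HFD library. The HFD level was the highest of the 3 for 50 of 71 genes (background 39.8%) and the lowest for 6 (background 36.4%), which were Mrpl17, Mrpl20, Mrpl47, Mrps25, Mrps31 and Mrps35. It lay at least 1.3-fold above both other libraries for 10 genes (background 10.4%) and as far below both for 0 (background 9.02%). The 10 were Mrpl1, Mrpl14, Mrpl28, Mrpl38, Mrpl44, Mrpl49, Mrpl57, Mrps24, Mrps27 and Mrps28. Mrpl14, which encodes a protein at the interface of the subunits, measured 26.3, 39.0 and 27.5 CPM, and Mrps24, the mitochondrial relative of S3, measured 28.9, 42.0 and 31.7 CPM. As 14.1% of the members against 10.4% of all genes, this count by itself does not set the members apart.

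Both subunits showed the pattern. For the 47 large-subunit genes the median log2 ratio was 0.20 for HFD against chow, with 37 above 1, and -0.23 for DfCS-Ib against HFD, with 39 below 1. For the 24 small-subunit genes it was 0.31, with 18 above 1, and -0.25, with 21 below 1. Over all genes the medians were 0.02 and -0.01, with 51.9% above 1 in the first comparison and 51.5% below 1 in the second. Summed large-subunit counts were 1.13-fold (1.1 to 1.15) and summed small-subunit counts 1.17-fold (1.12 to 1.21) those of chow in the HFD library. These intervals overlap. In both subunits the DfCS-Ib/chow median was 0.00.

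Split by descent, the class medians were the more uneven in the small subunit, where the classes held 5 to 11 genes. The 5 with bacterial relatives, Mrps6, Mrps16, Mrps18c, Mrps21 and Mrps28, were all higher in the HFD library than in chow (background 51.9%). Their log2 ratios lay between 0.32 and 0.55, with a summed ratio of 1.39 (1.26 to 1.54). Of the 11 with relatives in all ribosomes 10 were higher, with a median of 0.31 and Mrps2, the relative of bacterial S2, as the exception at -0.07. Of the 8 found in mitochondria alone 3 were higher (background 51.9%), with a summed ratio of 1.0 (0.940 to 1.06). These 3 were Mrps22, Mrps27 and Mrps33, and Mrps25, Mrps26, Mrps31, Mrps34 and Mrps35 were not. Mrps26 and Mrps35 lay almost at 1, with ratios of 0.997 and 0.996, and Mrps33 had only 7 and 21 counts in chow and HFD. With library totals 5 of the 8 lay above 1 (background 60.8%), and the other classes kept their direction. In the large subunit the medians were 0.16 for 14 genes of universal descent, 0.19 for 14 of bacterial descent and 0.24 for 19 found in mitochondria alone. In the same order 12, 8 and 17 genes lay above 1 (background 51.9%), with summed ratios of 1.13, 1.05 and 1.19. For DfCS-Ib against HFD the medians of the 6 classes lay between -0.33 and -0.16, and in each class most genes were below 1 (background 51.5%).

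The 3 paralogs of bacterial S18 can be set beside each other, since a mammalian genome holds 1 for the large subunit and 2 for the small one. Mrps18a, which sits in the large subunit, measured 18.3, 24.7 and 19.4 RPKM in the chow, HFD and DfCS-Ib libraries. Mrps18c, of the small subunit, measured 32.6 RPKM in the HFD library and 23.2 in the DfCS-Ib library, with less than either in chow. Both genes were highest in the HFD library, with HFD/chow ratios of 1.26 (1.04 to 1.53) and 1.51 (1.2 to 1.93), whose intervals overlap. Mrps18b, the other small-subunit paralog, was listed at 0. Mrps12, which encodes the decoding-centre relative of bacterial S12, where mutations to streptomycin resistance fall, measured 17.6, 22.6 and 19.8 CPM, with 1.29-fold more in HFD than in chow (1.07 to 1.55).

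Transcript length moved with these ratios across the whole transcriptome. The 11407 protein-coding genes that passed the filter were split by stated length into 5 classes of equal size. The class of the shortest genes had a median HFD/chow log2 ratio of 0.18 and that of the longest one of -0.14. For DfCS-Ib against HFD the medians ran the other way, from -0.12 in the shortest to 0.08 in the longest. Mitochondrial ribosomal genes are short, with a median of 1324 bases against 3488 for protein-coding genes, and 50 of the 71 fell in the shortest class. In that class their medians were 0.25 and -0.24, against the 0.18 and -0.12 of all its protein-coding genes. In the next class, with 11 members, they were 0.24 and -0.26 against 0.08 and -0.05. The longer classes held only 4, 3 and 3 members. Their HFD/chow medians were 0.13, 0.22 and -0.25, against 0.02, -0.05 and -0.14. For DfCS-Ib against HFD they were -0.05, -0.3 and 0.07, against 0.00, 0.05 and 0.08. In the longest class the members thus did not lie to the same side.

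Each member was then set against protein-coding genes of matched length, with 10 length classes. For HFD against chow 48 of 71 members were above the median of their class and 23 below, and the median difference was 0.08, in place of 0.20 against all genes. For DfCS-Ib against HFD 52 of 71 were below, with a median of -0.12 in place of -0.22, and for DfCS-Ib against chow 44 of 71 were below, with a median of -0.05. At matched length the medians of both comparisons with the HFD library were thus smaller, while that of DfCS-Ib against chow, 0.00 before, was farther from 0. Matching GC content as well gave 0.06, -0.11 and -0.05. The length-matched comparison was added after the length trend had been seen.

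**Figure D3:**
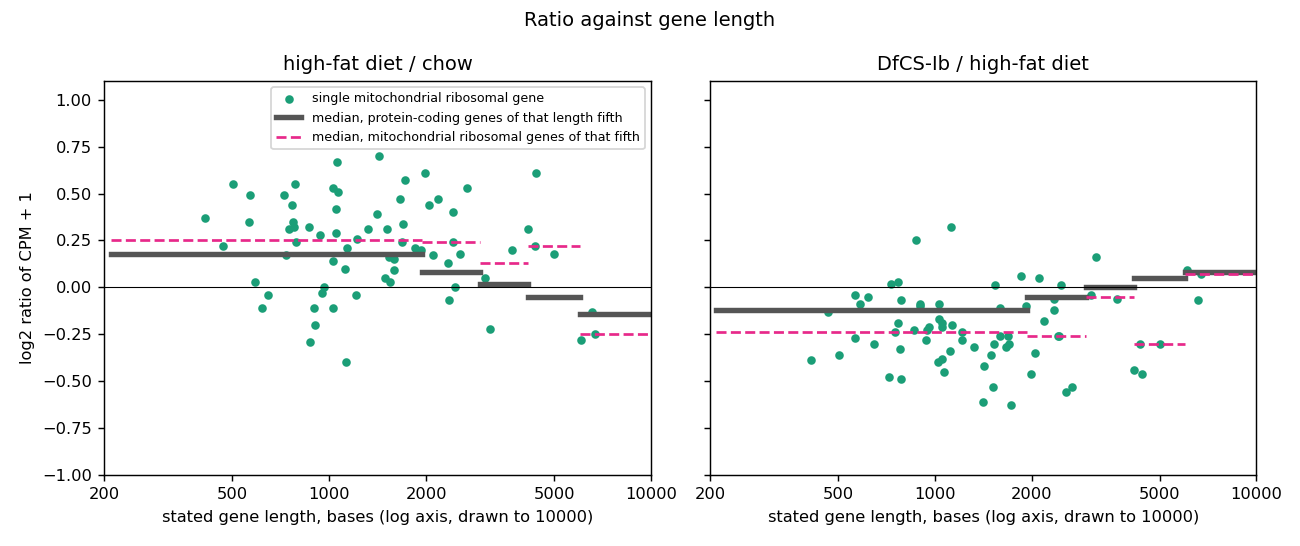
Log2 ratio of CPM plus 1 against stated gene length in bases (log axis) for HFD against chow and DfCS-Ib against HFD; points are single mitochondrial ribosomal genes, grey bars the median of protein-coding genes in each of 5 length classes, and pink dashes the members' median in that class. The grey bars step down from 0.18 to -0.14 on the left and up from -0.12 to 0.08 on the right, and the pink dashes of the first 2 classes lie beyond them, at 0.25 and 0.24 and at -0.24 and -0.26. In the longest class, with 3 members, the pink dashes lie at -0.25 and 0.07.

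Many of these genes start back to back with another protein-coding gene. Of 70 analysed members on the main chromosomes, 25 (35.7%) had a protein-coding neighbour on the opposite strand that starts within 1000 bases upstream, or overlaps at the start by up to 200 bases, against 13.6% of 11346 protein-coding genes. In 1 case both genes are members. Mrpl46, of the large subunit, and Mrps11, of the small subunit, start 42 bases apart on chromosome 7 of mm10 and run in opposite directions. Mrpl46 had 184, 243 and 179 counts and Mrps11 79, 131 and 93 in the chow, HFD and DfCS-Ib libraries, so both were highest in the HFD library. The HFD/chow ratios were 1.1 (0.908 to 1.34) and 1.39 (1.04 to 1.86). Mrps12 starts 44 bases from Sars2, the mitochondrial seryl-tRNA synthetase, which had 73, 114 and 62 counts. Of 21 analysed neighbours that are not members, 11 were highest in the HFD library (background 39.8%) and 7 lowest (background 36.4%). Fau, next to Mrpl49, was among the 11 with 173, 237 and 164 counts, as were Sars2 and Psma2. Wdfy1, whose start overlaps that of Mrpl44 by 29 bases, had 111, 103 and 106 counts, while Mrpl44 had its peak in the HFD library.

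Promoter sequences are shown for 3 members, because they carry the motifs of factors known to drive genes of the mitochondrial ribosome and because the results above name them: Mrps11 with the start shared with Mrpl46, Mrps27 with a high HFD reading, and Mrpl32 with its own order. The windows are from RefSeq on GRCm38.p6, the build also called mm10, and run 5′ to 3′ on the gene's strand from 250 bases before its RefSeq start to 50 after. Capitals mark the motif matches: the YY1 motif in Mrps11, the ETS motif and then the YY1 motif in Mrps27, and 3 matches of the NRF1 motif in Mrpl32, the first 2 of which overlap because the site reads the same on both strands. The Mrps11 window is chr7:78782881-78783180 on the plus strand, with the first base of Mrpl46 at position 209 and that of Mrps11 at position 251. Mrpl46 runs from there towards lower positions, so the YY1 match, at positions 143 to 151, lies within the Mrpl46 gene. The Mrps27 window is chr13:99344536-99344835 on the plus strand, set on a RefSeq start downstream of the one in the deposited table, and the Mrpl32 window chr13:14612988-14613287 on the minus strand.
Mrps11: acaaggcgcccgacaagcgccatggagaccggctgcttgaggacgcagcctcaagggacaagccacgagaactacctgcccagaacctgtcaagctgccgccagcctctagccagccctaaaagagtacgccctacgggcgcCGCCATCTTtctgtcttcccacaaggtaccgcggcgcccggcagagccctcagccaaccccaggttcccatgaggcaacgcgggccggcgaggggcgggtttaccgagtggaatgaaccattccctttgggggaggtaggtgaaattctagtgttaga
Mrps27: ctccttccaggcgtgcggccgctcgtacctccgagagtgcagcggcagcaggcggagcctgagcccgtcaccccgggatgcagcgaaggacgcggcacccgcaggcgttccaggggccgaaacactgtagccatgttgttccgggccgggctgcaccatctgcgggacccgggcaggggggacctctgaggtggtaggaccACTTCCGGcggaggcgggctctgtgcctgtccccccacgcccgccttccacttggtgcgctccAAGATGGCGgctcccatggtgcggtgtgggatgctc
Mrpl32: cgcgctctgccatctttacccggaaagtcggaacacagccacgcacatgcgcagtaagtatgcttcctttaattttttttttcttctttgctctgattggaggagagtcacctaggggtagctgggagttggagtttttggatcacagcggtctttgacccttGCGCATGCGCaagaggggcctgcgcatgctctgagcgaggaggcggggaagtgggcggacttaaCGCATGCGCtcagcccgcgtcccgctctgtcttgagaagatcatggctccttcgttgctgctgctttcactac

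Windows were matched for 68 of the 77 genes, 74 windows in all, and each was searched on both strands. A member was counted when any of its windows matched, and members that did not pass the filter, such as Mrpl22 and Mrps18b, were included. Promoters of all kinds were counted singly. The YY1 motif AAGATGGCG was found for 8 of 68 (11.8%), against 1.40% of 32851 promoters of all kinds and 3.67% of 8676 protein-coding genes that passed the filter and had a window. Beside Mrps11 and Mrps27 these were Mrpl35, Mrpl36, Mrpl37, Mrpl42, Mrps18a and Mrps24. The Mrps11 match lies within Mrpl46, which was not itself counted for this motif. The ETS motif CCGGAAGT, read by factors such as GABP, was found for 12 (17.6%, against 3.89% and 9.05%). The NRF1 motif GCGCATGCG was found for 7 (10.3%, against 1.75% and 4.14%), which beside Mrpl32 were Mrpl9, Mrpl10, Mrpl17, Mrpl22, Mrpl39 and Mrps18b. A TATA box, TATAAA, was found for 5 (7.35%, against 13.6% and 9.17%), and the E-box CACGTG for 5 (7.35%, against 7.15% and 12.1%). A match describes letters in a window and does not show that a factor bound there. Genes with a motif did not share 1 order: with the YY1 motif, HFD/chow log2 ratios ran from -0.20 (Mrpl36) to 0.61 (Mrps27), with the NRF1 motif from -0.25 (Mrpl17) to 0.47 (Mrpl9), and with the ETS motif from -0.04 (Mrpl43) to 0.61 (Mrps27).

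Most genes of the factors themselves did not have the members' order. Among 10 genes of such factors and their coactivators, 8 were lower in the HFD library than in chow (background 48.1%), with a median log2 ratio of -0.19. With DfCS-Ib 9 were higher than with HFD alone (background 48.5%), with a median of 0.06. Of these, Gabpa and Gabpb1 lay almost at 1, with ratios of 1.0 and 1.01. With library totals 4 of the 10 were higher (background 38.6%) and 6 lower (background 61.4%), with a median of -0.02. Gabpa had 939, 903 and 756 counts (HFD 1.24-fold lower than chow, 1.13 to 1.36), Yy1 610, 560 and 520 (1.3-fold lower, 1.16 to 1.46) and Nrf1 133, 145 and 122, where the interval of the ratio included 1. Ppargc1a, whose product PGC-1alpha coactivates genes of mitochondrial biogenesis, had 362, 143 and 328 counts. It was 3.03-fold lower in HFD than in chow (2.49 to 3.70) and 2.75-fold higher with DfCS-Ib than with HFD (2.25 to 3.37), an order opposite to that of most members. Ppargc1b had 133, 157 and 317 counts, and was high in the DfCS-Ib library alone.

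Other nuclear genes of mitochondrial translation were taken from lists of known function. The 6 matched ribosomal proteins with other names were Ict1, Gadd45gip1, Dap3, Chchd1, Aurkaip1 and Ptcd3. Their medians were 0.28 for HFD against chow, with 5 above 1 (background 51.9%), and -0.15 for DfCS-Ib against HFD, with 6 below 1 (background 51.5%). Gadd45gip1 had the widest swing, with 373, 611 and 347 counts. Of 25 assembly factors 18 were above 1 in HFD against chow (median 0.21, background 51.9%). In DfCS-Ib against HFD 15 of the 25 were below 1 and 10 above (median -0.13, background 51.5% below 1). The highest was Rpusd4, a pseudouridine synthase of the 16S ribosomal RNA, with 43, 125 and 69 counts and a 2.43-fold difference between HFD and chow (1.71 to 3.52), and the lowest was Mrm1, a methyltransferase of the same RNA, with 57, 45 and 32 counts. Of 13 translation factors 9 were above 1 in the first comparison (median 0.15) and 10 of the 13 below 1 in the second (median -0.24), against the same backgrounds. Mtfmt, which formylates the initiator tRNA, led them with 53, 111 and 56 counts, and Mtrf1l, a release factor, was lowest with 66, 68 and 66.

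The mitochondrial tRNA synthetases, which load amino acids onto the tRNAs that the ribosome reads, had a larger median difference than the ribosomal proteins. The list also holds Gatb, Gatc and Qrsl1, subunits of the amidotransferase that completes glutaminyl-tRNA, and Gars and Kars, which also serve the cytosol. Of 21 analysed, 18 were above 1 in HFD against chow (background 51.9%), with a median of 0.40. At least 1.3-fold higher were 12 (background 19.5%), and 1 was as much lower (background 16.1%). For DfCS-Ib against HFD 18 were below 1 (background 51.5%), with a median of -0.33. Their summed counts were 1.41-fold those of chow (1.36 to 1.45) in the HFD library, against 1.14-fold (1.12 to 1.16) for the members. Without the 3 amidotransferase subunits, a split made after the values were seen, 15 of 18 were above 1 and 10 at least 1.3-fold higher, with medians of 0.42 and -0.32 and a summed ratio of 1.39 (1.34 to 1.44). At matched length the medians of all 21 were 0.36 and -0.35. Tars2 had 121, 295 and 155 counts, a 2.04-fold difference between HFD and chow (1.64 to 2.54), Lars2 had 1540, 2983 and 2140, and Mars2, the lowest, had 42, 32 and 31.

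Most RNAs that mitochondrial DNA gives to the same system did not have the members' order. The ribosomal RNA genes of the small and the large subunit, Rnr1 and Rnr2, had 19963, 24042 and 25187 counts and 42512, 42947 and 48758 counts in the chow, HFD and DfCS-Ib libraries. The HFD/chow ratios were 1.01 (0.988 to 1.03) and 0.845 (0.834 to 0.856), and the DfCS-Ib/HFD ratios 1.26 (1.23 to 1.28) and 1.36 (1.34 to 1.38), so that both were highest in the DfCS-Ib library. Of the 8 analysed mRNAs that this ribosome translates, 6 were lowest in the HFD library (background 36.4%), among them ND5, which was 1.52-fold lower there than in chow. COX1 was the 1 mRNA that was highest in the HFD library, with an HFD/chow ratio of 1.04 (1.03 to 1.04) and a DfCS-Ib/HFD ratio of 0.908 (0.902 to 0.915). Of 17 tRNA genes 11 were lowest in the HFD library (background 36.4%) and 1, TrnS2 with 39, 55 and 29 counts, was highest there (background 39.8%). With library totals 9 of the 17 were lowest there and 2, TrnS2 and TrnT, highest. COX2, COX3, ATP6 and ATP8 had at most 10 counts in any library and could not be compared. Whether ribosomal RNA had been removed before sequencing was not given in the sources used here.

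Lists of nuclear genes outside mitochondrial translation show how common a shift of this size was. The 73 subunits of the respiratory chain and ATP synthase analysed had medians of 0.17 and -0.23, close to those of the members, and at matched length of -0.04 and -0.09. The 68 cytosolic ribosomal proteins had medians of 0.14 and -0.02, and at matched length of -0.06 and 0.10. The members' medians at matched length, given above, were 0.08 and -0.12. The 16 genes of mitochondrial DNA and RNA maintenance had medians of -0.04 and 0.00, and the 11 mitochondrial chaperones and proteases -0.08 and -0.04, and with library totals both HFD/chow medians were above 0, at 0.06 and 0.01.

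**Figure D4:**
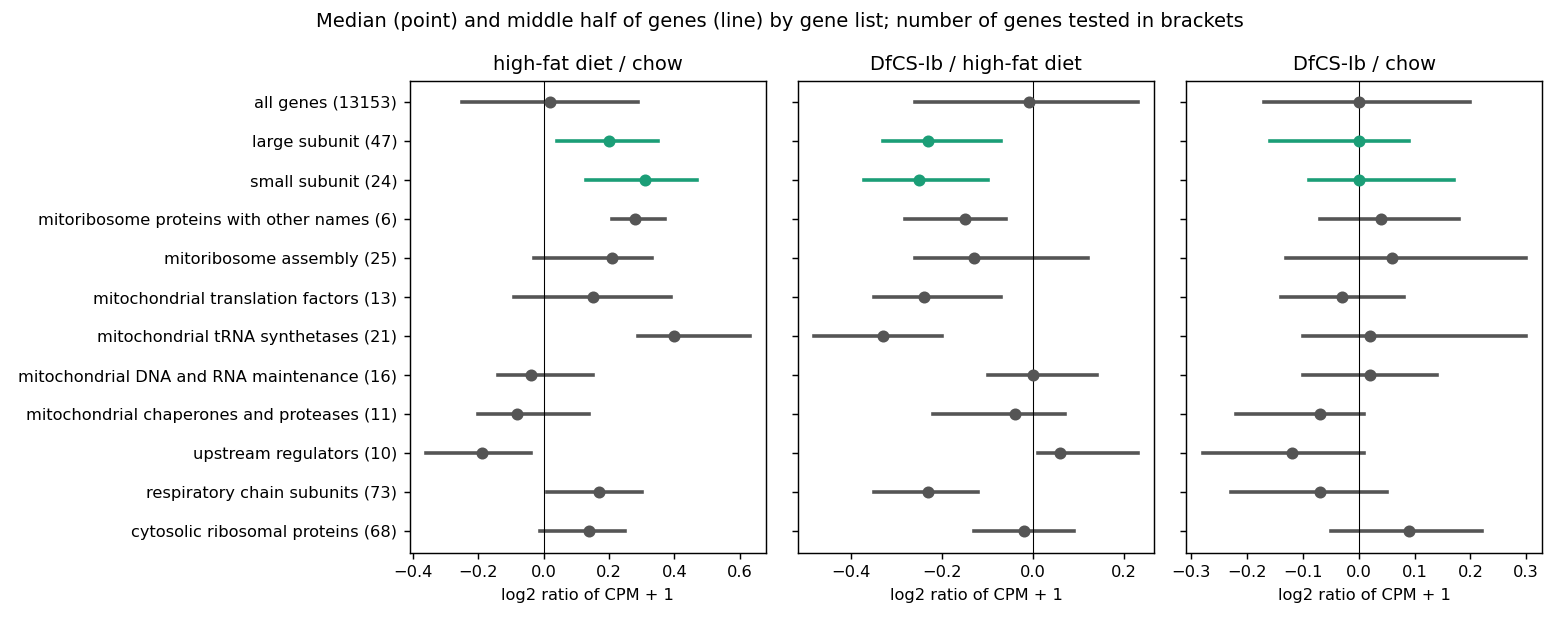
Median (point) and interquartile range (line) of the log2 ratio of CPM plus 1 for all genes, the members by subunit (green) and the other lists (grey), in 3 panels for the 3 comparisons, with the number of genes in brackets. The subunits lie at 0.20 and 0.31 on the left, at -0.23 and -0.25 in the middle and at 0.00 on the right, and the list of tRNA synthetases and amidotransferase subunits lies at 0.40 and -0.33.

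Markers of liver cell types were read in the same libraries, since in whole tissue fewer cells of a type and less RNA per cell cannot be told apart. Summed over 7 of 8 matched hepatocyte markers, counts were 1438412, 1399719 and 1279469 in the chow, HFD and DfCS-Ib libraries, as fits the labelled tissue. After scaling these sums were 134000, 109000 and 119000 CPM, lowest in the HFD library, where most members were highest. Alb made up most of these sums, at 113000, 85000 and 93900 CPM, and set their order. Hnf4a was 1.63-fold lower (1.58 to 1.67) in HFD than in chow. Cps1 was 2.31-fold lower (2.09 to 2.55), but is listed on a scaffold off the main chromosomes, with 1203, 623 and 837 counts. On the other side 4 of the 7 lay above 1, with Ttr highest at a log2 ratio of 0.72, and the median of the 7 was 0.09. The 7 Kupffer cell markers summed to 2975, 4338 and 6481, with each of the 7 at least 1.3-fold higher with DfCS-Ib than with HFD alone. Sums were 2941, 3347 and 3264 for endothelium, 3608, 3543 and 4263 for stellate cells, 448, 693 and 438 for cholangiocytes, 968, 1921 and 1341 for erythroid cells, 17, 43 and 27 for lymphocytes and 18, 23 and 29 for neutrophils, with Ly6g at 0. Adipocyte markers summed to 0, 4 and 0, with Lep at 0, and skeletal muscle markers to 0, 1 and 0, with Ckm, Myh4 and Tnnt3 at 0. After scaling, sums were 273, 260 and 304 CPM for endothelium and 335, 275 and 397 CPM for stellate cells, both lowest in the HFD library. The scaled cholangiocyte, erythroid and lymphocyte sums were highest in the HFD library, as were most members. The cholangiocyte sum was highest there through Spp1, with 330, 586 and 337 counts, while 2 of 4 analysed markers, Sox9 and Krt19, were below chow, with log2 ratios of -0.69 and -0.20. The erythroid sum was highest there through Alas2, with 619, 1549 and 835 counts. The 4 globin genes had HFD/chow log2 ratios of -0.22 to 0.00 and were each higher with DfCS-Ib than with HFD alone. The part of these cell types, and of transcript length, in the members' differences was not tested.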

How the data were processed

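Liver RNA sequencing from 3 groups of mice, with 1 library each, was analysed. The authors deposited, for every gene, its raw read count and an RPKM value, together with gene type, coordinates and length, per the file headers. That deposited RPKM equalled the count divided by length and by the file's total, to within 0.000506% where a gene had 100 counts or more. TopHat2 and the build mm10 are named in the submitters' processing notes. How reads were counted, with which strand setting, and what was done with several placements were not given in the sources used here.

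Counts were scaled with TMM factors of 0.976, 1.048 and 0.978 for chow, HFD and DfCS-Ib (edgeR 4.0.16, R 4.3.3). Log2 ratios were taken on CPM plus 1, which understates differences of low genes, for the 13153 genes whose CPM averaged 1 or more. A gene was counted at 1.3-fold or 2-fold on that scale. Single folds are ratios of scaled counts without a pseudocount, with an exact binomial interval for counting error. A count of 0 was taken to allow up to 3 counts. With 1 library per group no test was run, and the members are described beside the same measure over all genes. The ratio and interval code was tested on simulated data. Length came from the deposited tables and GC content from GENCODE vM21 transcripts, which gave a value for 95.0% of the protein-coding genes. Of 238 list entries 235 were matched.

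Named in the text are, per comparison, the 5 highest and 5 lowest members with 100 or more counts over the libraries, the 5 highest and 5 lowest by RPKM, the S18 paralogs, Mrpl12, Mrpl32, Mrps12 and Mrps36, and the highest and lowest gene of other lists. Members that share a start, carry a motif or make up a short count, and some genes of the other lists, were named after their values were seen. The members, lists and thresholds were chosen with earlier results of these data known.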

Additional observations from a re-analysis of the deposited data

How the results depend on the processing

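Alternatives were other scalings (library totals, DESeq2 1.42.0 size factors, the authors' RPKM, TMM without the 50 genes of highest mean count), no filter on low counts, a mean of at least 10 CPM, and a pseudocount of 5 CPM. For HFD against chow the members' median of 0.22 became 0.32 with library totals, 0.32 with RPKM and 0.19 with the larger pseudocount. The 19 genes at least 1.3-fold higher became 30, 29 and 12, and the 1 gene lower became 0 with each of these. Over all genes, of 13153 to 13158 analysed, 2567 higher became 3328, 2610 and 1578, and 2121 lower became 1530, 1083 and 1302. For DfCS-Ib against HFD the members' median of -0.24 became -0.33, -0.33 and -0.19. The 14 genes lower became 27 with library totals and 25 with RPKM, and the 0 genes higher became 1 without the 50 genes and 1 without a filter. Over all genes 2066 lower became 2895 and 2169, and 1969 higher became 2384 of 14146 and 2428 of 22900. For DfCS-Ib against chow the 1 member higher became 2 without the 50 genes and 2 without a filter. The 1 member lower became 0 with library totals, RPKM and the larger pseudocount. Over all genes 1648 higher became 2010 and 2112, and 1118 lower became 1087, 634 and 468. The members' summed ratios became 1.22 and 1.24 in place of 1.14, and 0.806 and 0.799 in place of 0.864, with library totals and RPKM.

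The members' median less that of all genes, 0.20 for HFD against chow, became 0.23 with RPKM, 0.24 without a filter and 0.17 with the larger pseudocount. For DfCS-Ib against HFD, -0.22 became -0.25 with RPKM and -0.19 with the larger pseudocount. Alternatives added after seeing the data moved these the most: matched length gave 0.08, -0.12 and -0.05 for the 3 comparisons, and length with GC content 0.06, -0.11 and -0.05. Leaving out the 23 members that overlap another gene gave -0.19 for DfCS-Ib against HFD. For the group of members, 37 values moved past the bounds set by their main value and 77 stayed within them. For single genes 666 values stayed within such bounds, and no named gene past 1.3-fold changed sign. The cause of the changes with scaling was not tested. No paired analysis was possible because each group had 1 library, and for the same reason no library could be left out. Depth limits single members: with about 200 to 300 counts, ratios under about 1.2-fold lie within counting error.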

Other observations

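Features near the members that stand apart are given as values. The mitochondrial tRNA gene TrnG, which supplies glycine to the ribosome, had 30 counts in the chow library, 25 in the HFD library and 462 in the DfCS-Ib library, a 22.2-fold difference (14.8 to 34.6) between the DfCS-Ib and HFD libraries. Most other mitochondrial tRNA genes with counts differed far less, for example TrnE with 1171, 905 and 1224. Mrps36-ps1, a processed copy that shares its name with a member, had 2, 26 and 4 counts, while Mrps36 itself had 3, 8 and 12. Among the neighbours that start back to back with a member, Pnpla7, next to Mrpl41, had 1033, 1715 and 1041 counts and Mitd1, next to Mrpl30, had 45, 95 and 64. Eme2, next to Mrps34, had 123, 89 and 69, and was lower in both HFD-fed libraries.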
